A study of Homo sapiens with 9 samples.

Results

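The tumor necrosis factor (TNF) superfamily consists of ligands, most of them trimers anchored in the membrane of immune cells, and of the receptors that bind them. Its genes were followed here across 9 orthotopic tumors of a mouse model of anaplastic thyroid cancer. Members were the rows of the expression table whose symbol began with Tnfsf or Tnfrsf, together with the ligands Tnf, Lta, Fasl, Cd40lg, Cd70 and Eda and the receptors Fas, Cd27, Cd40, Ltbr, Ngfr, Edar and Eda2r, which carry other names. The table of 17369 genes held 39 members, and 25 of them had an FPKM of at least 1 in at least 3 tumors and were tested among 10263 such genes. FPKM is the number of sequenced fragments of a gene divided by transcript length and by the depth of the library. Cd40lg, Eda and Eda2r were not analysed here.

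All tumors grew from TBP3743, a murine line from B6129SF1 mice whose thyroid cells carried mutant Braf (V600E) and had lost Trp53, both by thyroid-specific alleles. The original/B6129SF1 group received the original cells in B6129SF1 mice, the adapted/B6129SF1 group received adapted cells in B6129SF1 mice, and the adapted/B6 group received the same adapted cells in C57BL/6 mice, with 3 tumors in each group. Adapted cells are TBP3743 cells that had passed through 3 rounds of growth under the skin of C57BL/6 mice, and both adapted groups rest on this adapted line. Whether the largest tumor or the pair of largest tumors was carried on at each round is described in both ways in the study's text. Hosts were female and 6 weeks old, 100000 cells were injected into the thyroid, and tumors were taken after 14 days. Per the paper, the C57BL/6 mice came from Orient Bio and the B6129SF1 mice from the Jackson Laboratory, so host strain and supplier cannot be told apart. The labels list the organism as human, whereas the line, the hosts and the mm10 genome build are murine.

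Some receptors of the family carry a death domain, through which they recruit FADD and caspase-8 or the kinase RIPK1 and can kill the cell. Others recruit TRAF proteins, switch on NF-kB and act as costimulatory receptors of T cells, as survival receptors of B cells or as differentiation receptors of myeloid cells. Decoy receptors bind ligand without passing on a signal. In a tumor the ligands and receptors are thus divided among cancer cells, lymphocytes, macrophages and stroma, and bulk RNA holds the sum of all of them.

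Markers of the other cell types in the tumors differed between groups and between single tumors. The summed FPKM of 10 T cell markers was between 5.20 and 7.98 in the original/B6129SF1 tumors and between 26.4 and 39.9 in the adapted/B6 tumors, and none of these markers was at 0 in a tumor. In the adapted/B6129SF1 group it was 8.88 in replicate 1, close to the original/B6129SF1 tumors, and 41.6 and 37.3 in replicates 2 and 3. The sum of 5 general leukocyte markers was 203 to 265 in original/B6129SF1, 302 to 407 in adapted/B6129SF1 and 246 to 423 in adapted/B6. Skeletal muscle transcripts stood out in adapted/B6129SF1 replicate 3 and adapted/B6 replicate 1, at 29013 and 3952 FPKM over 7 genes against 2.53 to 493 in the other tumors. The labels call the samples cancer epithelial cells. The sum of 5 epithelial markers, nearly all of it Krt8 and Krt18, was 575 to 969 in original/B6129SF1, 265 to 545 in adapted/B6129SF1 and 369 to 422 in adapted/B6, so leukocyte, muscle and epithelial transcripts were all present in these samples.

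The 6 most abundant members were receptors. Of the 39 members, 13 were ligands, and 6 of these were tested. Among the receptors, 4 of 7 with a death domain, 11 of 15 without one, and 4 of 4 in the decoy group were tested. Tnfrsf12a, the receptor for TWEAK, was the most abundant member at 162 to 289 FPKM, followed by the TNF receptor Tnfrsf1a at 55.6 to 74.4 and the lymphotoxin beta receptor Ltbr at 31.5 to 42.9. These 3 genes made up 66.4% to 77.4% of the summed FPKM of all 39 members, which lay between 384 and 527 per tumor. The share of Tnfrsf12a alone was 50.2% to 58.4% in original/B6129SF1, 39.1% to 49.5% in adapted/B6129SF1 and 42.3% to 45.9% in adapted/B6. The most abundant ligand was Tnfsf9, the ligand of the costimulatory receptor CD137, at 5.24 to 17.4 FPKM.

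**Figure D1:**
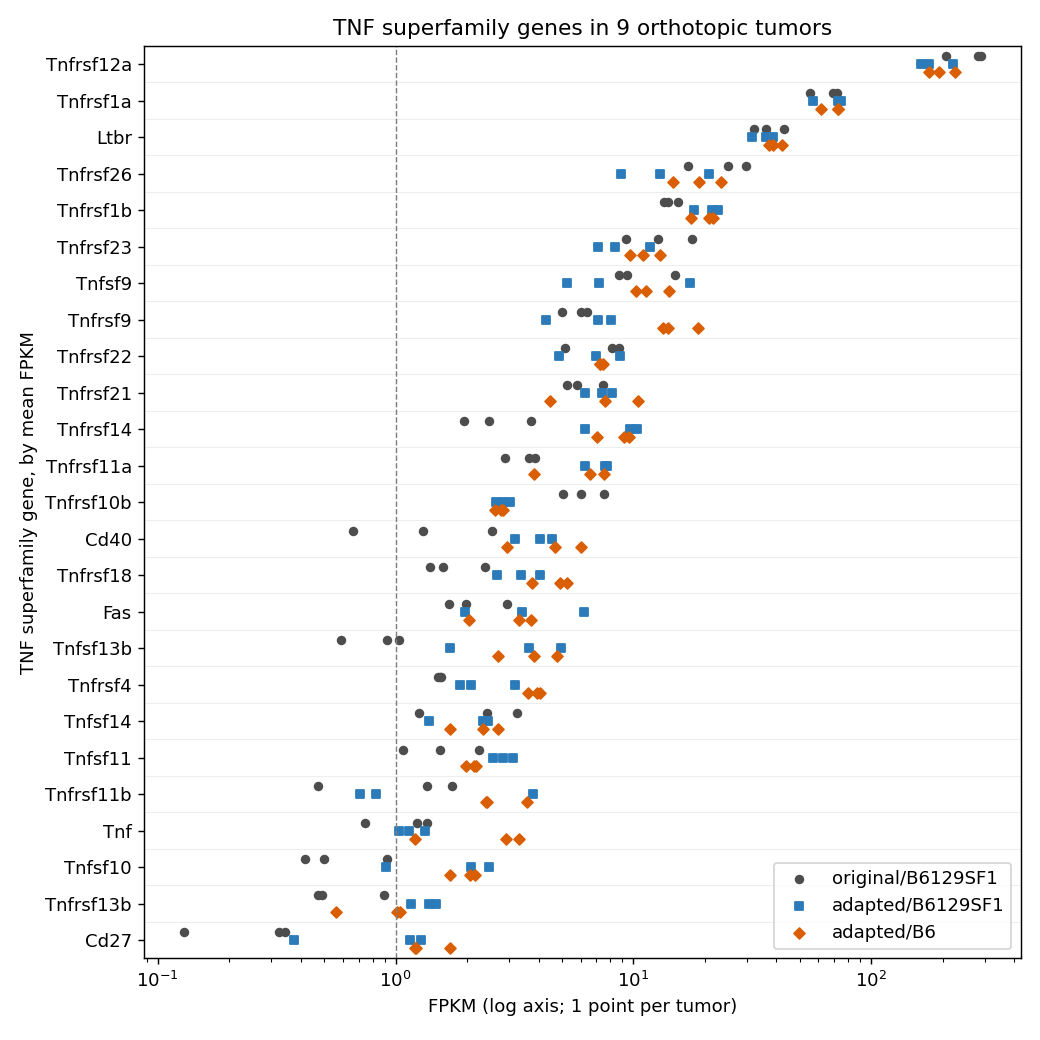
Each point is the FPKM (log axis) of a tested TNF superfamily gene in 1 tumor, with genes ordered by their mean over all 9 tumors, circles for original/B6129SF1, squares for adapted/B6129SF1 and diamonds for adapted/B6, and a dashed line at 1 FPKM. Tnfrsf12a lies between 162 and 289 FPKM at the top, and Cd27 between 0.129 and 1.69 at the bottom, where the original/B6129SF1 points lie left of the line.

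Of the tested members, 3 (Cd27, Tnfsf10 and Tnfrsf13b) were under 1 FPKM in every original/B6129SF1 tumor and reached 1 FPKM in 5 tumors, so they entered the test only through adapted tumors. Tnfsf13b reached 1 FPKM in 1 original/B6129SF1 tumor and in all adapted tumors, so it too met the limit of 3 tumors only with adapted tumors. Cd40, Tnf and Tnfrsf11b reached 1 FPKM in 2 original/B6129SF1 tumors. At the other side of that limit, Fasl reached 1 FPKM in 1 tumor, at 1.07, and was not tested. On the log2(FPKM + 1) scale used for all fold changes, the change of such weakly expressed genes is understated.

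The adapted/B6129SF1 and original/B6129SF1 groups share the host strain and differ in the cells implanted. Of the 25 tested members 4 were higher and 1 was lower in adapted/B6129SF1 by limma at an adjusted p under 0.05, where 4.37% of all genes tested were higher and 3.92% lower. Tnfrsf14, Tnfsf13b, Tnfrsf11a and Tnfrsf1b rose, and Tnfrsf10b fell. Of these, Tnfsf13b met the limit of 3 tumors only with adapted tumors, so its call is not independent of the filter. With the additional threshold of an absolute log2 fold change above 1 that defines DEGs here, Tnfrsf14 and Tnfsf13b remained, so 2 members were higher DEGs against 2.36% of all genes. The 3 tumors of each group did not overlap for 10 members higher in adapted/B6129SF1 and 1 lower, against 13.6% and 15.9% of all genes. The 10 include Cd27, Tnfrsf13b and Tnfsf13b, which passed the filter through adapted tumors, so this count is not independent of the filter. The median log2 fold change was 0.22 over the members and -0.03 over all genes tested, and 17 of 25 members had a value above 0, as did 4695 of the 10263 genes. Without both tumors with muscle transcripts 2 members were called, Tnfrsf14 and Tnfrsf10b, and the share of all genes called in either direction went from 8.28% to 4.60%. With 1 tumor left out the members called were 2 or 3, except without adapted/B6129SF1 replicate 1 or adapted/B6 replicate 2, where they were 5, and the share of all genes was 2.19% to 7.87%.

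The adapted/B6 and original/B6129SF1 groups differ in both the cells and the host. Here 6 members rose and 1 fell, against 3.99% and 2.77% of all genes. Tnfrsf9, Tnfrsf4, Tnfrsf18, Cd27, Tnfrsf14 and Tnfsf13b were higher, and Tnfrsf10b was lower. Of these, Cd27 and Tnfsf13b met the limit of 3 tumors only with adapted tumors, so their calls are not independent of the filter. The 4 members that were higher DEGs were Tnfrsf9, Tnfrsf18, Tnfrsf14 and Tnfsf13b, where 2.42% of all genes were higher DEGs. No overlap between the groups was seen for 10 members higher and 1 lower, against 14.9% and 17.9% of all genes. The 10 include Cd27, Tnfsf10 and Tnfsf13b, which passed the filter through adapted tumors, so this count is not independent of the filter. The median was 0.32 over the members and -0.03 over all genes tested. Without both tumors with muscle transcripts 4 members were called, Tnfrsf9, Tnfrsf4, Tnfrsf14 and Tnfrsf10b, and the share of all genes called in either direction went from 6.75% to 5.22%. The same 4 were called without original/B6129SF1 replicate 1 or adapted/B6 replicate 1 (3.25% and 3.73% of all genes), and without adapted/B6 replicate 3 there were 2, Tnfrsf9 and Tnfrsf10b (1.94% of all genes). Since both comparisons use the same original/B6129SF1 tumors, they are not independent of each other.

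Between adapted/B6 and adapted/B6129SF1, which share the cells and differ in host strain and supplier, limma called 0 of the 25 members and 0.0292% of all genes. At an unadjusted p under 0.05 there were 3 members, Tnfrsf9, Tnfrsf4 and Tnf, against 6.27% of all genes. Tnfrsf9 and Tnfrsf4 were higher in every adapted/B6 tumor than in any adapted/B6129SF1 tumor, and Tnfsf11 and Tnfrsf13b were lower, where 6.32% and 5.42% of all genes did not overlap in those directions.

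**Figure D2:**
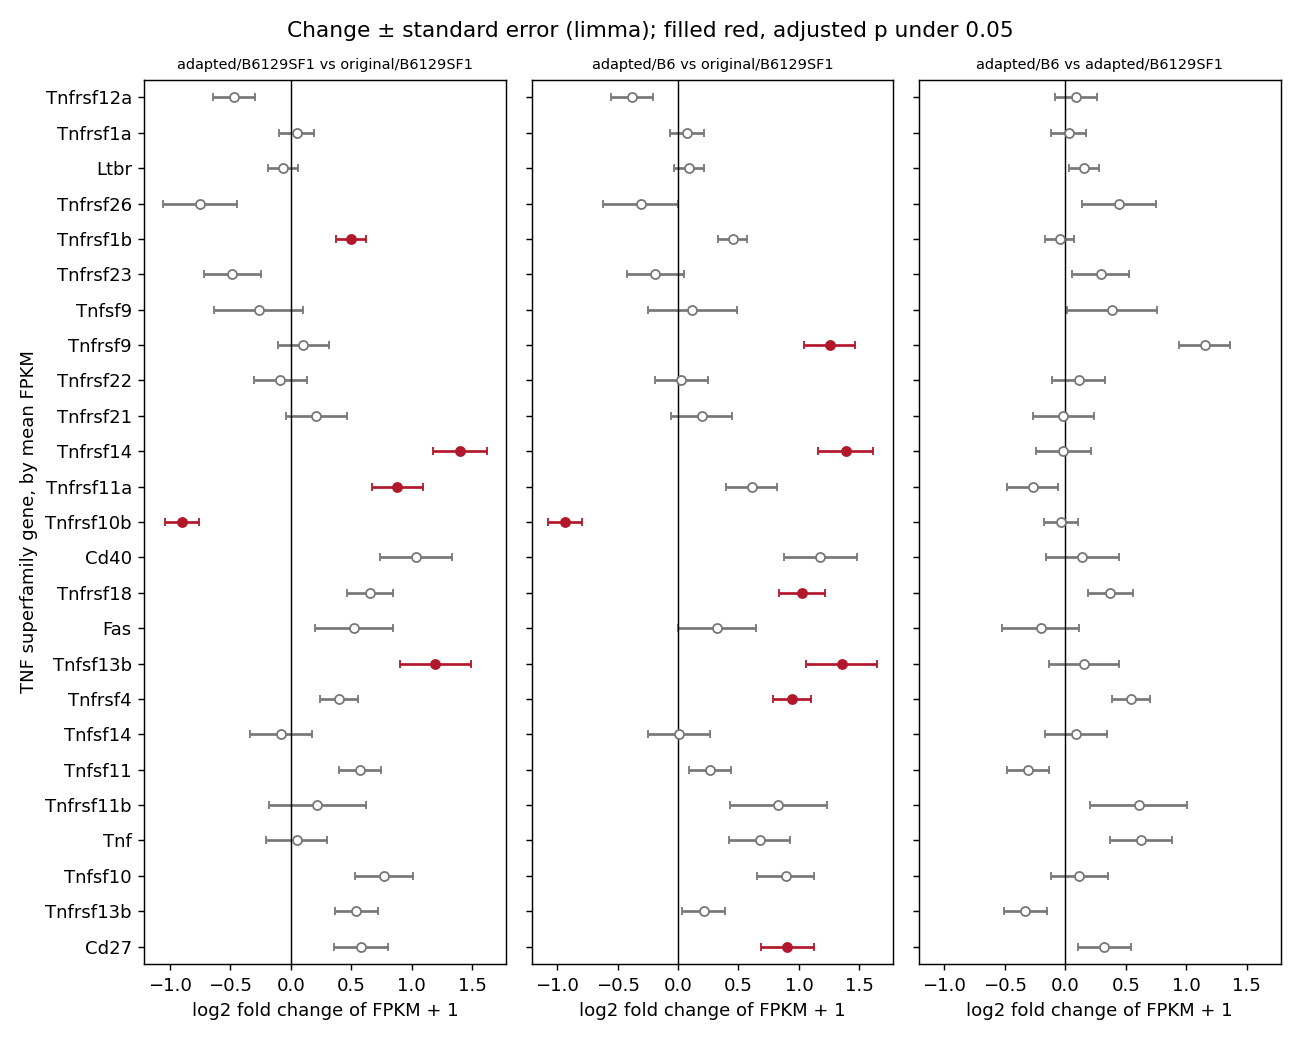
Points give the log2 fold change of FPKM + 1 of each tested member in the 3 comparisons, bars the standard error from limma, and filled red points an adjusted p under 0.05. Filled points number 5 in adapted/B6129SF1 against original/B6129SF1, 7 in adapted/B6 against original/B6129SF1 and 0 in adapted/B6 against adapted/B6129SF1, and Tnfrsf10b is the filled point left of 0 in the first and second panels.

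The 4 receptors Tnfrsf9, Tnfrsf4, Tnfrsf18 and Cd27 costimulate T cells and rose in adapted/B6 against original/B6129SF1. They were put together after their values were seen, and other members can act on T cells too, among them Tnfrsf14, which rose in both adapted groups, and Tnfrsf25, which was too weak to test at 0.414 ± 0.244 FPKM in original/B6129SF1, 0.544 ± 0.121 in adapted/B6129SF1 and 0.242 ± 0.019 in adapted/B6 (SD, n = 3). None of the 4 passed the test in adapted/B6129SF1 against original/B6129SF1, and none passed that between the adapted groups. Tnfrsf9 encodes CD137, which activated T and NK cells carry. Its FPKM was 6.04, 5.03 and 6.38 in original/B6129SF1, 8.08, 7.08 and 4.30 in adapted/B6129SF1 and 13.4, 18.8 and 14 in adapted/B6. All adapted/B6 tumors thus lay above the other 6, whose ranges overlapped with each other. Its mean in adapted/B6 was 2.64 times that in original/B6129SF1, and the log2 fold change was 1.26 (SE, the standard error, was 0.21, and the limma adjusted p was 0.0113). Against adapted/B6129SF1 the log2 fold change was 1.15 (SE 0.21, adjusted p = 0.293), and in adapted/B6129SF1 against original/B6129SF1 it was 0.10 (adjusted p = 0.786). Because the tumors were measured in bulk, more cells of a type and more RNA per cell cannot be told apart for this and the following genes.

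Tnfrsf4 encodes OX40, a receptor of recently activated T cells. It was 1.55, 1.51 and 1.53 FPKM in original/B6129SF1, 1.87, 2.08 and 3.19 in adapted/B6129SF1 and 3.94, 3.61 and 4.06 in adapted/B6, so the groups were ordered without overlap. The log2 fold change of adapted/B6 against original/B6129SF1 was 0.94 (SE 0.16, limma adjusted p = 0.0106), and without adapted/B6 replicate 3 the adjusted p was 0.0583. In adapted/B6129SF1 it was 0.40 against original/B6129SF1 (adjusted p = 0.149), and the difference between the adapted groups was 0.55 (adjusted p = 0.602).

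Tnfrsf18 encodes GITR, which is high on regulatory T cells and rises on other T cells after activation. FPKM values were 1.58, 1.39 and 2.37 in original/B6129SF1, 2.66, 4.05 and 3.38 in adapted/B6129SF1 and 4.92, 3.74 and 5.27 in adapted/B6. Every adapted tumor was above every original/B6129SF1 tumor, and the adapted groups overlapped. Tnfrsf18 rose in adapted/B6 by a log2 fold change of 1.03 (SE 0.19, limma adjusted p = 0.0166), while the change of 0.65 in adapted/B6129SF1 did not pass (adjusted p = 0.0678). The adapted/B6 call was lost without original/B6129SF1 replicate 1, adapted/B6 replicate 1 or adapted/B6 replicate 3 (adjusted p = 0.0588, 0.0573 and 0.0822), and without both tumors with muscle transcripts (adjusted p = 0.0565).

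Cd27, a receptor of naive and memory T cells, was the weakest tested member and entered the test only through adapted tumors. It was 0.343, 0.129 and 0.324 FPKM in original/B6129SF1, 0.374, 1.28 and 1.15 in adapted/B6129SF1 and 1.69, 1.22 and 1.21 in adapted/B6. Adapted/B6129SF1 replicate 1, the tumor with few T cell transcripts, lay next to the original/B6129SF1 tumors. The mean in adapted/B6 was 5.17 times that in original/B6129SF1, and the log2 fold change was 0.90 (SE 0.22, limma adjusted p = 0.0471), a call that held in 2 of the 9 fits that left out a tumor, those without adapted/B6129SF1 replicate 1 or replicate 3. In adapted/B6129SF1 the log2 fold change of 0.58 did not pass (adjusted p = 0.139). Without adapted/B6129SF1 replicate 1 it was 0.81 (adjusted p = 0.0410), the only 1 of 9 such fits in which it passed.

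**Figure D3:**
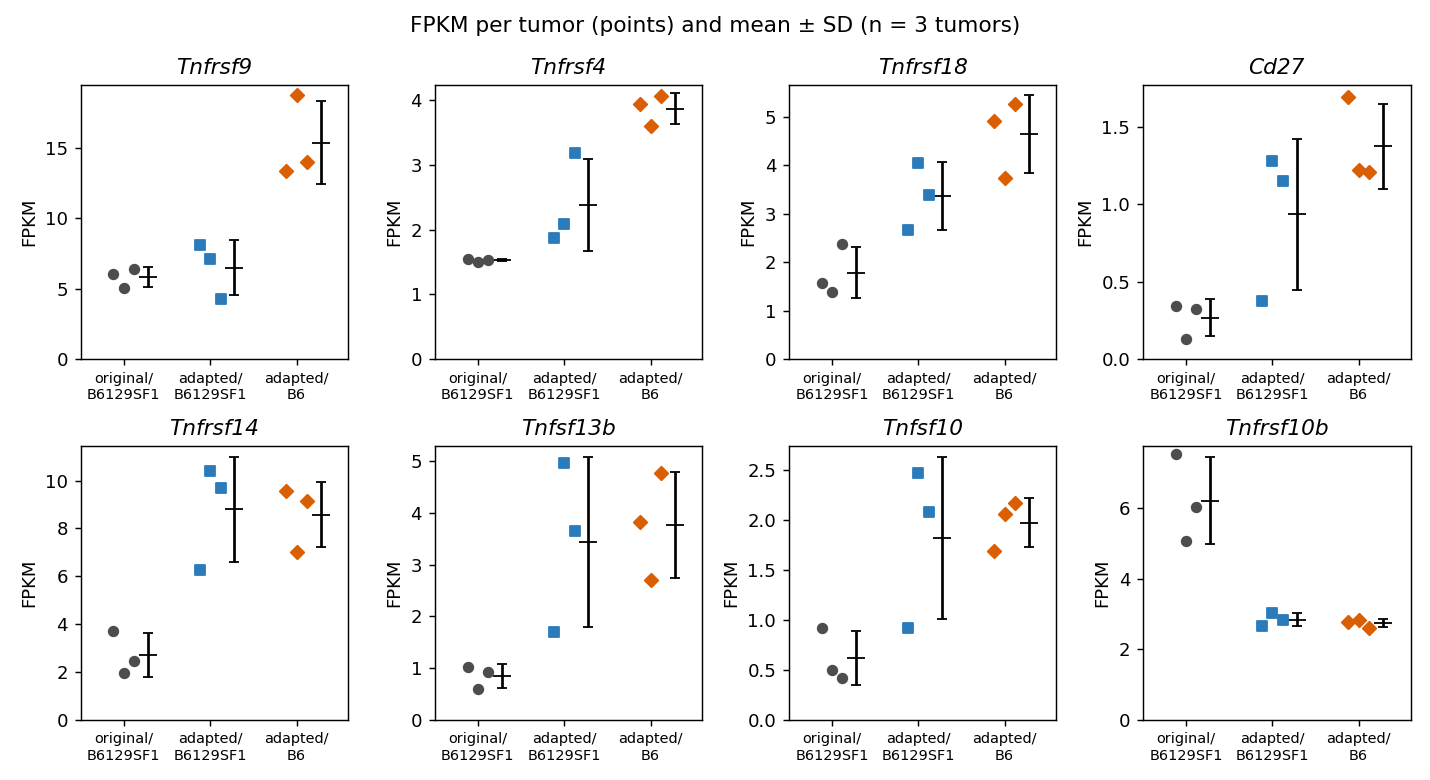
Points are the FPKM of single tumors in each group for 8 members, and bars the mean ± SD of 3 tumors, on linear axes from 0. Tnfrsf9 separates adapted/B6 (13.4 to 18.8) from the other groups (4.30 to 8.08), Tnfrsf14 and Tnfsf13b are higher in both adapted groups, and Tnfrsf10b is at 2.61 to 3.02 in the adapted tumors against 5.08 to 7.53 in original/B6129SF1.

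These receptors were then set beside the T cell markers of each tumor. The ratio of Cd27 to the summed T cell markers was 0.036 ± 0.010 in original/B6129SF1, 0.035 ± 0.0066 in adapted/B6129SF1 and 0.042 ± 0.0050 in adapted/B6 (SD, n = 3 each). The same ratio for Tnfrsf9 was 0.843 ± 0.109, 0.398 ± 0.444 and 0.489 ± 0.197. For Tnfrsf4 it was 0.226 ± 0.055, 0.115 ± 0.085 and 0.119 ± 0.019, and for Tnfrsf18 0.255 ± 0.050, 0.163 ± 0.119 and 0.141 ± 0.017. Within adapted/B6129SF1, Tnfrsf9 over T cell markers was 0.910 in replicate 1 and 0.170 and 0.115 in replicates 2 and 3, where the T cell sum, the denominator of the ratio, was 8.88, 41.6 and 37.3. Adapted/B6 replicate 2 had the highest Tnfrsf9, 18.8 FPKM, beside the lowest T cell sum of its group, 26.4. The sum of 7 NK and cytotoxic genes was 8.50 to 22.8 in original/B6129SF1, 20.5 to 42.1 in adapted/B6129SF1 and 54.4 to 81.8 in adapted/B6. Gzmb was the largest part of that sum in adapted/B6, with group means of 7.16, 10.6 and 39.9 FPKM. The group means of Gzmb, Gzma, Klrd1, Klrb1c and Nkg7 followed the order of those of Tnfrsf9. Those of Prf1 (3.59, 3.39 and 5.50) and Ncr1 (0.238, 0.475 and 0.423) did not. The part of T, NK and cytotoxic cells in the receptor values was not tested, and the ratios were chosen after the values were seen.

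**Figure D4:**
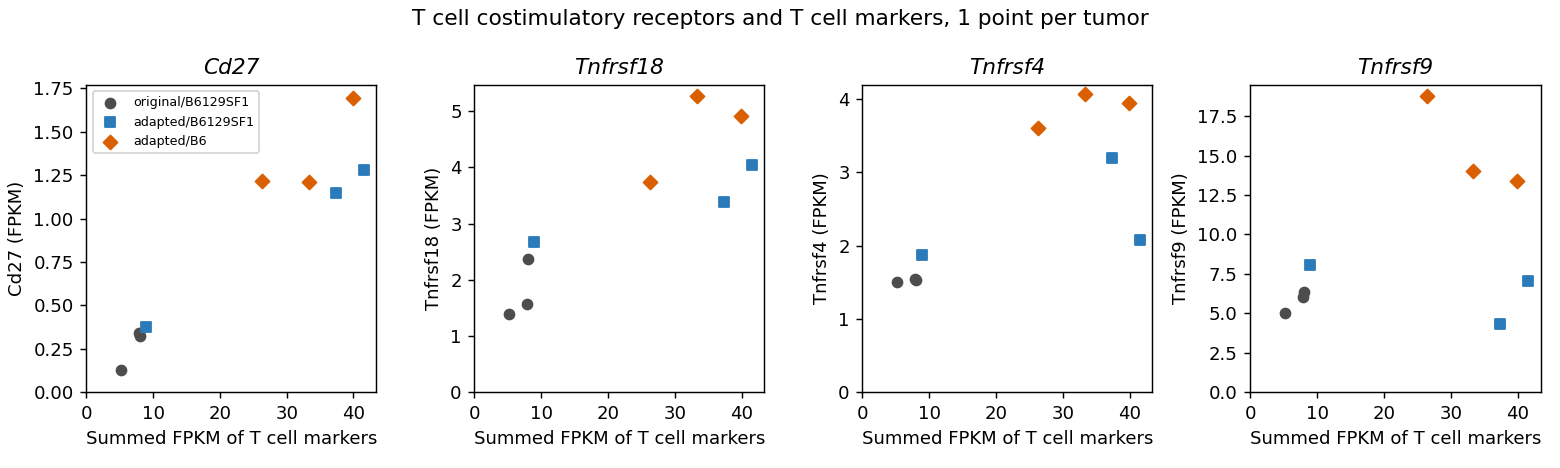
Each panel plots the FPKM of 1 costimulatory receptor against the summed FPKM of 10 T cell markers, 1 point per tumor, with circles for original/B6129SF1, squares for adapted/B6129SF1 and diamonds for adapted/B6. For Cd27 the tumors with few T cell transcripts (sum of 5.20 to 8.88) lie low and the others high, whereas for Tnfrsf9 the adapted/B6129SF1 tumors with sums of 37.3 and 41.6 lie at 4.30 and 7.08 FPKM, near the original/B6129SF1 tumors (5.03 to 6.38) and under every adapted/B6 tumor.

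Of the ligands of these receptors 1 was abundant enough to test, and it did not pass. Tnfsf9, the ligand of CD137 on antigen presenting and tumor cells, was 8.72, 9.41 and 15.0 FPKM in original/B6129SF1, 17.4, 7.14 and 5.24 in adapted/B6129SF1 and 14.1, 10.2 and 11.3 in adapted/B6. The groups overlapped, and the log2 fold changes against original/B6129SF1 were -0.27 and 0.12 (SE 0.37, limma adjusted p = 0.678 and 0.879). The ratio of Tnfsf9 to Tnfrsf9 was 1.89 ± 0.456 in original/B6129SF1, 1.46 ± 0.609 in adapted/B6129SF1 and 0.801 ± 0.252 in adapted/B6 (SD, n = 3). The OX40 ligand Tnfsf4, the GITR ligand Tnfsf18 and the CD27 ligand Cd70 were too weak to test, with highest values of 0.346, 0.781 and 0.335 FPKM. Cd70 was listed at 0 in all original/B6129SF1 tumors and in adapted/B6129SF1 replicate 1, and at 0.0493 to 0.335 in the other 5.

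Tnfrsf14, also called HVEM, binds LIGHT and the inhibitory receptor BTLA and is found on lymphocytes, myeloid cells and epithelia. It was 3.71, 1.95 and 2.47 FPKM in original/B6129SF1, 6.27, 10.4 and 9.70 in adapted/B6129SF1 and 9.55, 7.02 and 9.15 in adapted/B6. Every adapted tumor was above every original/B6129SF1 tumor, and the adapted groups overlapped. Its means were 3.25 and 3.17 times that of original/B6129SF1, and the log2 fold changes were 1.40 in adapted/B6129SF1 (SE 0.23, limma adjusted p = 0.0109) and 1.39 in adapted/B6 (SE 0.23, adjusted p = 0.00976). The call in adapted/B6129SF1 held in 16 of 16 alternative fits, and that in adapted/B6 in 15 of 16, with an adjusted p of 0.0528 without adapted/B6 replicate 3. Adapted/B6129SF1 replicate 1, with few T cell transcripts, was the lowest adapted tumor and above the highest original/B6129SF1 tumor. The part of T cells in Tnfrsf14 was not tested. Relative to the summed general leukocyte markers Tnfrsf14 was 0.011 ± 0.0035 in original/B6129SF1, 0.024 ± 0.0026 in adapted/B6129SF1 and 0.024 ± 0.0037 in adapted/B6 (SD, n = 3).

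Its ligand Tnfsf14, or LIGHT, was 2.42, 1.26 and 3.23 FPKM in original/B6129SF1, 2.46, 1.39 and 2.34 in adapted/B6129SF1 and 2.70, 1.70 and 2.32 in adapted/B6. These values overlapped, and the log2 fold changes were -0.08 and 0.01 (limma adjusted p = 0.871 and 0.990). LIGHT also binds Ltbr, which organizes lymphoid tissue and is carried by stromal and epithelial cells. Ltbr was 37.1 ± 5.35 FPKM in original/B6129SF1, 35.4 ± 3.61 in adapted/B6129SF1 and 39.4 ± 2.52 in adapted/B6 (SD, n = 3), and its log2 differences were -0.06 and 0.09 (adjusted p = 0.774 and 0.703). The lymphotoxin genes were low. Lta did not exceed 0.377 FPKM, and Ltb, which lies outside the rule for members, was at 0.933 to 4.68 FPKM and did not pass the test in any comparison.

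Tnfsf13b encodes BAFF, the B cell survival factor made by myeloid and stromal cells. Its FPKM was 1.03, 0.592 and 0.920 in original/B6129SF1, 1.69, 4.96 and 3.64 in adapted/B6129SF1 and 3.83, 2.71 and 4.77 in adapted/B6. All adapted tumors exceeded the original/B6129SF1 tumors. The means were 4.05 and 4.45 times that of original/B6129SF1, and the log2 fold changes were 1.20 (SE 0.29, limma adjusted p = 0.0410) and 1.35 (SE 0.29, adjusted p = 0.0305). Only 1 original/B6129SF1 tumor reached 1 FPKM, so Tnfsf13b entered the test through adapted tumors and its calls are not independent of the filter. In adapted/B6129SF1 the call held in 2 of 9 fits with a tumor left out, those without adapted/B6129SF1 replicate 1 or adapted/B6 replicate 2, and in adapted/B6 in 4 of 9, those without any adapted/B6129SF1 tumor or adapted/B6 replicate 2. Relative to general leukocyte markers, Tnfsf13b was 0.0036 ± 0.00070 in original/B6129SF1, 0.0091 ± 0.0033 in adapted/B6129SF1 and 0.0105 ± 0.0011 in adapted/B6 (SD, n = 3).

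Receptors for BAFF were near or under the limit. Tnfrsf13b, or TACI, was 0.491, 0.470 and 0.892 FPKM in original/B6129SF1, 1.16, 1.38 and 1.49 in adapted/B6129SF1 and 1.01, 0.564 and 1.05 in adapted/B6. Adapted/B6129SF1 lay above both other groups without overlap, but its log2 fold change of 0.54 against original/B6129SF1 did not pass (limma adjusted p = 0.0977). Tnfrsf13c, the BAFF receptor proper, and Tnfrsf17, or BCMA, did not exceed 0.119 and 0.133 FPKM, and the 5 B cell markers summed to between 0.183 and 1.46 FPKM per tumor.

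On the TRAIL axis the death receptor fell in both adapted groups. Tnfrsf10b, the death receptor for TRAIL in the mouse, was 7.53, 5.08 and 6.03 FPKM in original/B6129SF1, 2.65, 3.02 and 2.83 in adapted/B6129SF1 and 2.77, 2.84 and 2.61 in adapted/B6. The 6 adapted tumors lay close together, all below the original/B6129SF1 tumors. Tnfrsf10b fell by 0.90 on the log2 scale in adapted/B6129SF1 (SE 0.14, limma adjusted p = 0.00967) and by 0.93 in adapted/B6 (SE 0.14, adjusted p = 0.0070), and both calls held in 16 of 16 alternative fits. The adapted means were 0.456 and 0.441 times that of original/B6129SF1, and between the adapted groups the log2 difference was -0.04 (SE 0.14, adjusted p = 0.975). Of the 5 epithelial markers Krt8 fell as well in both adapted groups (adjusted p = 0.0189 and 0.0346), and the others did not pass. Krt18 was at -0.94 and -0.93, Cdh1 at -0.52 and 0.36, Epcam at -0.26 and 0.01 and Krt19 at -0.24 and 0.0020 in log2 units, in adapted/B6129SF1 and adapted/B6 against original/B6129SF1. The thyroid lineage factor Nkx2-1 was at 0.04 and 0.09 (adjusted p = 0.932 and 0.859), and whether the amount of epithelial tumor cells bears on Tnfrsf10b was not tested.

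Tnfsf10, which encodes TRAIL itself, was 0.922, 0.501 and 0.418 FPKM in original/B6129SF1, 0.915, 2.47 and 2.07 in adapted/B6129SF1 and 1.69, 2.06 and 2.16 in adapted/B6. All adapted tumors but adapted/B6129SF1 replicate 1 were above the original/B6129SF1 tumors. The log2 fold changes of 0.77 and 0.89 did not pass (limma adjusted p = 0.0827 and 0.0583). Without adapted/B6129SF1 replicate 1 they were 1.03 and 0.89 (adjusted p = 0.0231 and 0.0206). Of 9 fits with a tumor left out, only that fit passed, in either comparison. The ratio of Tnfsf10 to Tnfrsf10b was 0.122, 0.099 and 0.069 in original/B6129SF1, 0.345, 0.816 and 0.732 in adapted/B6129SF1 and 0.610, 0.726 and 0.828 in adapted/B6. No original/B6129SF1 tumor reached the lowest adapted ratio, and this ratio too was chosen after the values were seen.

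Tnfrsf22 and Tnfrsf23 encode mouse decoy receptors for TRAIL, and Tnfrsf26 is their close relative; the paralogs may share fragments, so their separate values are uncertain. Tnfrsf22 was 7.34 ± 1.93, 6.87 ± 1.96 and 7.33 ± 0.137 FPKM in original/B6129SF1, adapted/B6129SF1 and adapted/B6 (SD, n = 3). Tnfrsf23 was 13.2 ± 4.16, 9.08 ± 2.43 and 11.2 ± 1.61, and Tnfrsf26 was 24.0 ± 6.53, 14.3 ± 6.09 and 19.0 ± 4.32. The groups overlapped for all of them. The largest log2 fold change was that of Tnfrsf26 in adapted/B6129SF1, -0.75 (SE 0.31, limma adjusted p = 0.162), and none of the 3 passed.

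Tnfrsf11a encodes RANK, the receptor of osteoclast precursors, dendritic cells and some epithelia, which binds RANKL. It was 3.85, 2.88 and 3.64 FPKM in original/B6129SF1, 6.24, 7.77 and 7.59 in adapted/B6129SF1 and 7.50, 3.80 and 6.60 in adapted/B6. Adapted/B6129SF1 was above original/B6129SF1 without overlap, and adapted/B6 replicate 2 fell within the original/B6129SF1 range. The log2 fold change was 0.88 in adapted/B6129SF1 (SE 0.21, limma adjusted p = 0.0389) and 0.61 in adapted/B6 (adjusted p = 0.122). The first of these calls held in 2 of 9 fits with a tumor left out, those without adapted/B6 replicate 1 or replicate 2. Without adapted/B6 replicate 2 the change in adapted/B6 was 0.86 (adjusted p = 0.0257), and it passed in no other such fit. That tumor also had the lowest macrophage marker sum, 1049 FPKM over 6 genes against 1213 to 2444 elsewhere. The dendritic cell sum was 3.26 to 5.79 in original/B6129SF1 and 10.5 to 13.1 in the adapted tumors. Of its 6 genes 4 were tested, and Clec9a alone changed against original/B6129SF1, in both comparisons, where 8.28% and 6.75% of all genes changed. Its group means were 0.269, 4.12 and 3.74 FPKM. Clec9a was under 1 FPKM in every original/B6129SF1 tumor, so it entered the test only through adapted tumors and its calls are not independent of the filter. Flt3 and Xcr1 were under 1 FPKM in every tumor. The part of macrophages and dendritic cells in Tnfrsf11a was not tested.

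RANKL, encoded by Tnfsf11, was 2.24, 1.54 and 1.08 FPKM in original/B6129SF1, 3.13, 2.82 and 2.58 in adapted/B6129SF1 and 2.17, 2.14 and 1.98 in adapted/B6. Adapted/B6129SF1 was the highest group without overlap. Its log2 fold change of 0.57 did not pass (SE 0.17, limma adjusted p = 0.0761) except without original/B6129SF1 replicate 1 (adjusted p = 0.0495), and the difference between the adapted groups was -0.31 (adjusted p = 0.834). The soluble decoy for RANKL, osteoprotegerin or Tnfrsf11b, was 1.73, 0.470 and 1.36 FPKM in original/B6129SF1, 3.79, 0.830 and 0.709 in adapted/B6129SF1 and 3.56, 2.40 and 2.42 in adapted/B6. It varied widely within adapted/B6129SF1, where replicate 1 was the highest of all tumors, and passed no test (adjusted p = 0.759 and 0.244 against original/B6129SF1).

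Cd40, through which T cells license B cells, dendritic cells and macrophages, was 0.665, 2.55 and 1.31 FPKM in original/B6129SF1, 3.19, 4.05 and 4.55 in adapted/B6129SF1 and 4.69, 2.94 and 6.03 in adapted/B6. Each adapted tumor was above each original/B6129SF1 tumor, but original/B6129SF1 was spread widely. The log2 fold changes of 1.04 and 1.18 (SE 0.30 each) missed the threshold (limma adjusted p = 0.0692 and 0.0521). Without original/B6129SF1 replicate 2, the highest of its group, they were 1.32 and 1.46 (adjusted p = 0.0368 and 0.0289). Of the 9 fits with a tumor left out, Cd40 passed in 1 for adapted/B6129SF1 and in 2 for adapted/B6.

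TNF itself, a product of macrophages and activated T cells, was among the weaker members. Tnf was 1.36, 1.23 and 0.744 FPKM in original/B6129SF1, 1.03, 1.33 and 1.14 in adapted/B6129SF1 and 3.30, 1.21 and 2.92 in adapted/B6, so adapted/B6 replicates 1 and 3 stood above all other tumors and replicate 2 among them. The log2 fold change of adapted/B6 was 0.67 against original/B6129SF1 (SE 0.25, limma adjusted p = 0.149) and 0.63 against adapted/B6129SF1 (adjusted p = 0.789). Without adapted/B6 replicate 2 the first of these was 0.97 (adjusted p = 0.0302), the only 1 of 9 fits with a tumor left out in which it passed.

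Tnfrsf1a, the broadly expressed TNF receptor with a death domain, was 65.6 ± 8.73, 67.9 ± 9.48 and 68.9 ± 6.44 FPKM in original/B6129SF1, adapted/B6129SF1 and adapted/B6 (SD, n = 3), and its log2 fold changes of 0.05 and 0.08 (SE 0.14) were within the spread of the tumors. Tnfrsf1b, the TNF receptor of leukocytes and endothelium that lacks a death domain, was 13.4, 14.1 and 15.4 FPKM in original/B6129SF1, 22.7, 17.9 and 21.4 in adapted/B6129SF1 and 20.8, 17.5 and 21.7 in adapted/B6. All adapted tumors lay above the original/B6129SF1 tumors. It rose in adapted/B6129SF1 by a log2 fold change of 0.50 (SE 0.12, limma adjusted p = 0.0403), and the change of 0.45 in adapted/B6 was just over the threshold (adjusted p = 0.0583). The first call held in 2 of 9 fits with a tumor left out, those without adapted/B6129SF1 replicate 2 or adapted/B6 replicate 2. Relative to general leukocyte markers Tnfrsf1b was 0.061 ± 0.0071 in original/B6129SF1, 0.058 ± 0.0158 in adapted/B6129SF1 and 0.057 ± 0.0120 in adapted/B6 (SD, n = 3), so the group means of this ratio differed by less than its SD.

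The remaining receptors showed no change that passed the test. Fas, the death receptor for Fas ligand, was 1.67, 2.95 and 1.98 FPKM in original/B6129SF1, 1.96, 3.40 and 6.23 in adapted/B6129SF1 and 3.70, 2.04 and 3.31 in adapted/B6, and its groups overlapped (log2 fold changes 0.53 and 0.32, limma adjusted p = 0.329 and 0.589). Its ligand Fasl, made by cytotoxic cells, was 0.202, 0.0629 and 0.264 FPKM in original/B6129SF1, 0.160, 1.07 and 0.513 in adapted/B6129SF1 and 0.799, 0.821 and 0.530 in adapted/B6, again with adapted/B6129SF1 replicate 1 among the original/B6129SF1 tumors. Tnfrsf21, the death receptor DR6, was 6.16 ± 1.13, 7.26 ± 0.956 and 7.52 ± 3.02 FPKM in the 3 groups (adjusted p = 0.624 and 0.683 against original/B6129SF1). Tnfrsf12a was 281, 207 and 289 FPKM in original/B6129SF1, 162, 176 and 221 in adapted/B6129SF1 and 192, 175 and 225 in adapted/B6. Its means in the adapted groups were 0.720 and 0.763 times that of original/B6129SF1, the values of original/B6129SF1 replicate 2 overlapped with them, and the log2 fold changes of -0.47 and -0.38 did not pass (SE 0.17, adjusted p = 0.127 and 0.218).

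The other untested members were at low levels throughout. The receptors Tnfrsf19, Tnfrsf25, Tnfrsf8, Ngfr and Edar reached at most 0.915, 0.665, 0.481, 0.109 and 0.0464 FPKM, and the ligands Tnfsf8 and Tnfsf15 at most 0.671 and 0.117. Tnfrsf8, or CD30, was 0.165, 0.481 and 0.438 FPKM in adapted/B6 and 0.0288 to 0.0917 in adapted/B6129SF1, and the highest original/B6129SF1 value of 0.177 lay within the adapted/B6 range. Values this low rest on few fragments, and no test was made.

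Genes downstream of the receptors were examined next. Of 62 tested genes of 5 lists, covering adaptors, the NF-kB pathway, its inhibitors, its target genes and the proteases that process ligands, 4 were higher (6.45%) and 3 lower (4.84%) in adapted/B6129SF1, against 4.37% and 3.92% of all genes. In adapted/B6 4 were higher (6.45%) and 1 lower (1.61%), against 3.99% and 2.77%. Between the adapted groups limma called 0, and 5 (8.06%) had an unadjusted p under 0.05, against 6.27% of all genes. These pooled shares were near those of all genes, so the counts are no result about the 62 genes as a whole. Their median log2 fold change was 0.08 and 0.07 against original/B6129SF1. Without original/B6129SF1 replicate 3 or adapted/B6129SF1 replicate 3, 1 gene was called in adapted/B6129SF1, and without adapted/B6 replicate 3, 1 gene was called in adapted/B6. All these lists were compiled with earlier results of these data known.

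Among the adaptors and death signalling genes, 1 of 16 changed in adapted/B6129SF1 and 0 in adapted/B6, where 8.28% and 6.75% of all genes changed in either direction. Birc2, a ubiquitin ligase of the receptor complex, rose by 0.47 in adapted/B6129SF1 (limma adjusted p = 0.0238) and was 0.37 higher in adapted/B6 (adjusted p = 0.0579). Casp8 and Mlkl, the most abundant of the list at means of 29.4 and 27.1 FPKM, passed no test. In the NF-kB pathway list, 3 of 14 genes changed in adapted/B6129SF1 (21.4%) and 1 in adapted/B6 (7.14%), against the same shares of all genes. Rbck1, a subunit of the linear ubiquitin ligase, was 42.5, 39.9 and 41.0 FPKM in original/B6129SF1, 52.2, 63.6 and 51.6 in adapted/B6129SF1 and 59.1, 64.7 and 65.7 in adapted/B6, and it rose by 0.43 and 0.61 (adjusted p = 0.0378 and 0.0109). The NF-kB subunit Rela fell by 0.34 and the kinase Chuk fell by 0.33 in adapted/B6129SF1 (adjusted p = 0.0433 and 0.0442), with -0.25 and -0.30 in adapted/B6 (adjusted p = 0.116 and 0.0643). The most abundant genes of that list, Rbck1 and Nfkb1, averaged 53.4 and 44.8 FPKM, and Nfkb1 passed no test.

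Among 9 tested feedback inhibitors of NF-kB, 1 was higher in adapted/B6129SF1 and 0 in adapted/B6, against 4.37% and 3.99% of all genes. Tnfaip3, which encodes the deubiquitinase A20, rose in adapted/B6129SF1 by 0.58 (limma adjusted p = 0.0299) and stood 0.51 higher in adapted/B6 (adjusted p = 0.0522). Nfkbia and Tnip1, the most abundant inhibitors, passed no test. Of 18 target genes, 1 rose and 1 fell in adapted/B6129SF1, and 3 rose and 1 fell in adapted/B6, so that 11.1% and 22.2% changed in either direction beside 8.28% and 6.75% of all genes. Between the adapted groups limma called 0 of the 18. An unadjusted p under 0.05 was found for 5 (27.8%), against 6.27% of all genes. These were Ccl2, Cxcl10, Il1b, Csf1 and Bcl2a1b, all higher in adapted/B6. Ccl5, a T cell chemokine also made by T cells, was 13.3, 13.6 and 11.9 FPKM in original/B6129SF1, 32.6, 37.6 and 68.3 in adapted/B6129SF1 and 37.1, 44.5 and 48.8 in adapted/B6, and it rose by 1.69 and 1.67 in log2 units (adjusted p = 0.00746 and 0.00645). In adapted/B6129SF1 replicate 1, which had few T cell transcripts, Ccl5 was 32.6, the lowest of the adapted tumors and above every original/B6129SF1 tumor. The part of T cells in Ccl5 was not tested.

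Cxcl10, which is also an interferon target, rose in adapted/B6 by 1.84 (limma adjusted p = 0.0377) and was 0.58 higher in adapted/B6129SF1 (adjusted p = 0.415). Bcl2a1b rose in adapted/B6 by 1.25 (adjusted p = 0.0120), although near-identical copies of this gene may share fragments, so its value is uncertain. Ptgs2, the prostaglandin synthase, went the other way and fell by 2.39 and 2.24 in log2 units (adjusted p = 0.0215 and 0.0296). Csf1 and Mmp9, the most abundant targets at means of 153 and 150 FPKM, passed no test, and neither did the ligand proteases Furin and Adam10 at 56.8 and 51.2 FPKM. Of 7 related genes outside the rule, 1 was higher in each comparison with original/B6129SF1, against 4.37% and 3.99% of all genes. This gene, Tnfaip8, rose by 0.50 and 0.51 (adjusted p = 0.0356 and 0.0389), and Litaf, the most abundant of the 7, did not pass. A count of 1 is no result about the list.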

How the data were processed

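RNA of 9 orthotopic tumors, 3 per group, was analysed. Groups and replicate numbers came from the labels. Per the labels and the paper's methods, the authors checked reads with FastQC, aligned them to mm10 with HISAT2 and made the deposited FPKM values with Cuffnorm for all tumors together. Their own tests used Cuffdiff and were not used. The annotation is not given in the sources used here. Fragment counts were not used, so absolute depth is unknown. FPKM summed to between 457983 and 540514 per tumor, and the steps between low values gave an approximate depth of 0.964 to 1.35 relative to original/B6129SF1 replicate 1.

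Genes that reached 1 FPKM in 3 or more tumors (10263) entered a limma 3.58.1 fit of the 3 groups to log2(FPKM + 1) (R 4.3.3, lmFit, eBayes with trend), adjusted over all of these genes by the Benjamini-Hochberg method. Adjusted p under 0.05 counted as changed, and DEGs also had an absolute log2 fold change above 1. The procedure was tested on simulated data. The number of tumors limits the precision.

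Every tested member was named, as were signalling genes past the threshold and the pair of highest mean in each list. Members, lists and tests were chosen with earlier results of these data known. Alternatives were another scaling, other filters, a pseudocount of 0.1, only the groups compared, a replicate block and left-out tumors. Genes without a row were not analysed here, and neither sequences nor coordinates are given because a mouse reference was not used here.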

Additional observations from a re-analysis of the deposited data

How the results depend on the processing

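No member change with an unadjusted p under 0.05 changed sign in any alternative, and 0 members were called between the adapted groups in any of them. Members called in adapted/B6129SF1 against original/B6129SF1 (5 as reported) numbered 2 with every gene above 0 FPKM in 3 tumors tested, 3 with only the groups compared, 2 without both tumors with muscle transcripts and 2 to 5 with 1 tumor left out, and DEGs (2 as reported) numbered 1, 1, 1 and 1 to 3. DEGs were 1 when at least 1 FPKM in all 9 tumors was required and 4 with a pseudocount of 0.1. In adapted/B6 against original/B6129SF1 the members called (7 as reported) numbered 4 without the muscle tumors and 2 to 9 with 1 tumor left out, and the DEGs (4 as reported) 2 and 1 to 5, and 7 with a pseudocount of 0.1. Signalling genes called in adapted/B6129SF1 (7 as reported) numbered 1 with only the groups compared, 2 without the muscle tumors and 1 to 5 with 1 tumor left out, and in adapted/B6 (5 as reported) 1 to 7 with 1 tumor left out. Requiring 1 FPKM in all tumors leaves 18 members in the test and removes, among others, the called members Cd27 and Tnfsf13b. All genes called in adapted/B6129SF1, 8.28% of those tested as reported, were 5.66% with every gene above 0 FPKM in 3 tumors, 4.37% with only the groups compared, 4.60% without the muscle tumors and 2.19% to 7.87% with 1 tumor left out. In adapted/B6, 6.75% as reported, they were 5.22% without the muscle tumors and 1.94% to 7.78% with 1 tumor left out, so the number of calls moved over the whole table as well as in the family. The cause of these changes in the number of calls was not tested.

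With the replicate number as a block, 2 members, 1 DEG and 2 signalling genes were called in adapted/B6129SF1 against original/B6129SF1, and 5 members and 3 signalling genes in adapted/B6, where 4.33% and 3.78% of all genes were called. Tumors with the same number are different animals, and after centring each group their values correlated at between -0.39 and 0.61 over the pairs of groups, so the numbers were not taken to pair the tumors.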
